A study of Homo sapiens with 36 samples.

Results

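The 10 genes described here, SQSTM1, NBR1, MAP1LC3B, GABARAPL1, GABARAPL2, WIPI1, ATG9A, ULK1, BECN1 and TFEB, encode receptors, core machinery and a transcription factor of autophagy. They were taken by name from the count table of an RNA-seq series with 60675 genes, and all 10 were found and tested in each comparison. The 10 genes were chosen with earlier results of these data known, so counts of them beside shares of all genes are descriptions. The series comprised 36 libraries of 2 human cell lines, SW1783, an astrocytoma line, and HT29, a colorectal adenocarcinoma line, with 12 groups of 3 replicates harvested after 24 h. In batch B of each line, cells received ACD, an extract in hot water of the medicinal monkshood *Aconitum carmichaeli* Debeaux, at 500 (high), 100 (medium) or 20 (low) µg/mL, or vehicle. In batch A they received 10 µM wortmannin, an inhibitor of phosphoinositide 3-kinases that served as positive control, or vehicle. The labels give the vehicle as 0.1% DMSO, and the ACD stock was likewise made in buffered saline with DMSO. Whether replicates of a group were separate cultures was not stated, so p-values measure the spread between libraries, which may be technical.

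In autophagy, a double membrane grows around cytoplasmic cargo, closes into an autophagosome and fuses with lysosomes, where the cargo is degraded. The ULK1 kinase complex starts the process, and a lipid kinase complex that contains BECN1 makes the phosphoinositide that WIPI proteins bind. ATG9A, a scramblase carried on vesicles, helps to supply the membrane, and small ubiquitin-like proteins of the ATG8 family, to which MAP1LC3B, GABARAPL1 and GABARAPL2 belong, are conjugated to it. Receptors such as SQSTM1 and NBR1 tie ubiquitinated cargo to the ATG8 proteins and are degraded along with it. TFEB, which the nutrient-sensing kinase complex mTORC1 holds in the cytoplasm, activates lysosomal and autophagy genes through E-box elements. Transcript levels do not report the flux of cargo through the pathway, which was not measured in these libraries.

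The promoters of the 4 genes with the largest increases at the high dose in SW1783 are shown. GABARAPL2, BECN1, ATG9A and TFEB did not rise at that dose. Of the 4, GABARAPL1 rose at the high dose alone, whereas the others also rose at the medium dose. All 10 genes had a RefSeq promoter on GRCh38.p14, of which the 250 bases before the annotated start are printed. Capitals mark matches, on either strand, to the letters searched for. These were an E-box (CACGTG), the core of the CLEAR element (TCACGTGA, which contains the E-box), a C/EBP-ATF element (TGATGNAA), an antioxidant response element (ARE, TGACNNNGC), a cyclic AMP response element (CRE, TGACGTCA) and a GC box (GGGCGG). The SQSTM1 sequence is chr5:179806143-179806392 (+ strand), that of WIPI1 is chr17:68457497-68457746 (- strand), that of MAP1LC3B is chr16:87392086-87392335 (+ strand) and that of GABARAPL1 is chr12:10212627-10212876 (+ strand).
SQSTM1: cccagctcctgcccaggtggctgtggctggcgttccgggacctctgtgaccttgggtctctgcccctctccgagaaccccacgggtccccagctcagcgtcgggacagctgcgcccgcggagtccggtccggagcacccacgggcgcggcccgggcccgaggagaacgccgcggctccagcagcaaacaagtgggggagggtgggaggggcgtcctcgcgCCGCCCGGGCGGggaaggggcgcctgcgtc
WIPI1: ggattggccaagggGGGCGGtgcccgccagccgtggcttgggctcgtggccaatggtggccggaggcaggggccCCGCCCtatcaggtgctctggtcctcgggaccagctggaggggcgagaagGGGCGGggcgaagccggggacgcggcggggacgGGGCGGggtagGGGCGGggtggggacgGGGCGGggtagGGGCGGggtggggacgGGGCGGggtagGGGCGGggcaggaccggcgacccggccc
MAP1LC3B: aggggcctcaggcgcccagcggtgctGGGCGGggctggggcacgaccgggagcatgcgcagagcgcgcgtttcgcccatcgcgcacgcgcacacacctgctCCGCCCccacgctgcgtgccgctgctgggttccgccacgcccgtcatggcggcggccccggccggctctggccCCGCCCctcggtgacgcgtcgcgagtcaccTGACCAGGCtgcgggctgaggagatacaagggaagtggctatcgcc
GABARAPL1: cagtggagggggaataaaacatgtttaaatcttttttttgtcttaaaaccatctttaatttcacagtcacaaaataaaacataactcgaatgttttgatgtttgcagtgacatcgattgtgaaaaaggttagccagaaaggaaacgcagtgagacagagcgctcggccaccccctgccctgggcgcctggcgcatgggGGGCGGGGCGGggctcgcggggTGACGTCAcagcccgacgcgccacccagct

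The search covered these bases and the 50 bases after the start. A GC box was found in 9 of the 10 promoters, all but that of BECN1, against 45% of the 35116 human promoters of the same length. WIPI1 had 10 matches, 9 of them within the printed bases, and the 2 matches of GABARAPL1 overlapped by a base. The ARE letters occurred once among the 10, in MAP1LC3B at position -46 from the start, and in 13.3% of all promoters. The CRE letters also occurred once, in GABARAPL1 at position -30, and in 1.85% of all promoters. No E-box, CLEAR core or C/EBP-ATF element was found in the 10 windows, against shares of 7.26%, 0.98% and 3.62% of all promoters. The CRE and the GC box were added to the search after the sequences had been read. Matches of letters are a description of these windows and were not tested as binding sites.

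The SW1783 libraries held 18863863 to 26436867 counts each, and the HT29 libraries 15941255 to 33866644. The lines carried different markers, with vimentin (VIM) at a median of 4540 CPM (counts scaled to the library total) in SW1783 and 0.0358 in HT29, and EPCAM at 0.0386 and 534. Of the 6 SW1783 markers examined, VIM, COL1A2 and CD44 were abundant, though CD44 also reached a median of 528 CPM in HT29, while the astrocyte genes GFAP, S100B and AQP4 stayed at or below 0.261 CPM. All 6 epithelial markers examined, EPCAM, KRT20, CDH1, VIL1, CDH17 and CDX2, were counted in each HT29 library, at 4.02 CPM or more. Replicate 2 of the high dose in HT29 stood apart, and it was also the library with the lowest total. In a chi-square statistic of library pairs per degree of freedom, pairs of replicates reached 71.5 in HT29 and 3.77 in SW1783. Same-numbered vehicle libraries of the 2 batches lay closer together, at 1.46 to 1.64, than those with different numbers, at 2.04 or more, and whether the vehicles of the batches were separate cultures was not stated.

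In vehicle of batch B, SQSTM1 had the highest level per length among the 10 genes in both lines. Levels are given here as CPM per kilobase of exon (mean ± SD, n = 3). The length was the union of all exons of a gene in GENCODE v44, and the order under other lengths was not tested. SQSTM1 reached 67.7 ± 3.39 in SW1783 and 50.3 ± 2.53 in HT29. In SW1783 it was followed by ATG9A at 18.2 ± 0.737 and MAP1LC3B at 18 ± 0.907, which did not differ beyond their spread, then by NBR1 at 15.2 ± 0.643 and GABARAPL2 at 13.8 ± 0.819, whose ranges of SD overlapped. BECN1 (10.7 ± 0.252), WIPI1 (7.26 ± 0.1), ULK1 (6.31 ± 0.274) and GABARAPL1 (5.11 ± 0.127) were lower, and TFEB was lowest at 2.22 ± 0.0872. In HT29 the order was SQSTM1, ATG9A (22.4 ± 0.115), GABARAPL2 (20.8 ± 1.07), NBR1 (10.9 ± 0.939), BECN1 (9.78 ± 0.218), MAP1LC3B (9.57 ± 0.483), ULK1 (2.96 ± 0.179), TFEB (2.35 ± 0.353), WIPI1 (1.68 ± 0.127) and GABARAPL1 (1.5 ± 0.104). In that line the ranges of SD overlapped among NBR1, BECN1 and MAP1LC3B, and for WIPI1 and GABARAPL1. The lines were grown in different media, and the difference between their levels was not tested. All of the 10 genes except ULK1 and ATG9A overlap annotated genes on the opposite strand, among them MGAT4B and MRNIP at SQSTM1 and ARSG at WIPI1, and since the strand setting of the counting was not stated, reads of such pairs may not be told apart.

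The first question was how the 10 genes responded to ACD in SW1783. At the high dose 5 of them, SQSTM1, WIPI1, MAP1LC3B, GABARAPL1 and ULK1, were upregulated more than 1.5-fold and none was downregulated to that extent. NBR1 rose and TFEB and ATG9A fell by less, while BECN1 and GABARAPL2 did not pass the test. Differentially expressed genes (DEGs) were those that changed over 1.5-fold with an adjusted p-value under 0.05, the fold threshold being 0.585 on the log2 scale, by the Wald test of DESeq2 with Benjamini-Hochberg adjustment over all genes tested. By that rule 18.2% of 19453 genes were DEGs at this dose. By the adjusted p-value alone, 6 of the 10 genes were higher and 2 lower, against 23.9% and 22.6% of all genes. Of the 11263 genes tested whose normalized counts averaged at least 100, as those of the 10 genes did, 4037 were higher and 3547 lower. The median log2 fold change was 0.47 over the 10 genes and -0.01 over all genes tested. The values below are counts normalized with DESeq2 size factors, which allow libraries of a line and batch to be compared, and log2 fold changes are given ± SE with n = 3 per group. Whether the libraries of 2 groups overlapped is given for single genes as a description, and the share of all genes without overlap was not computed.

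**Figure D1:**
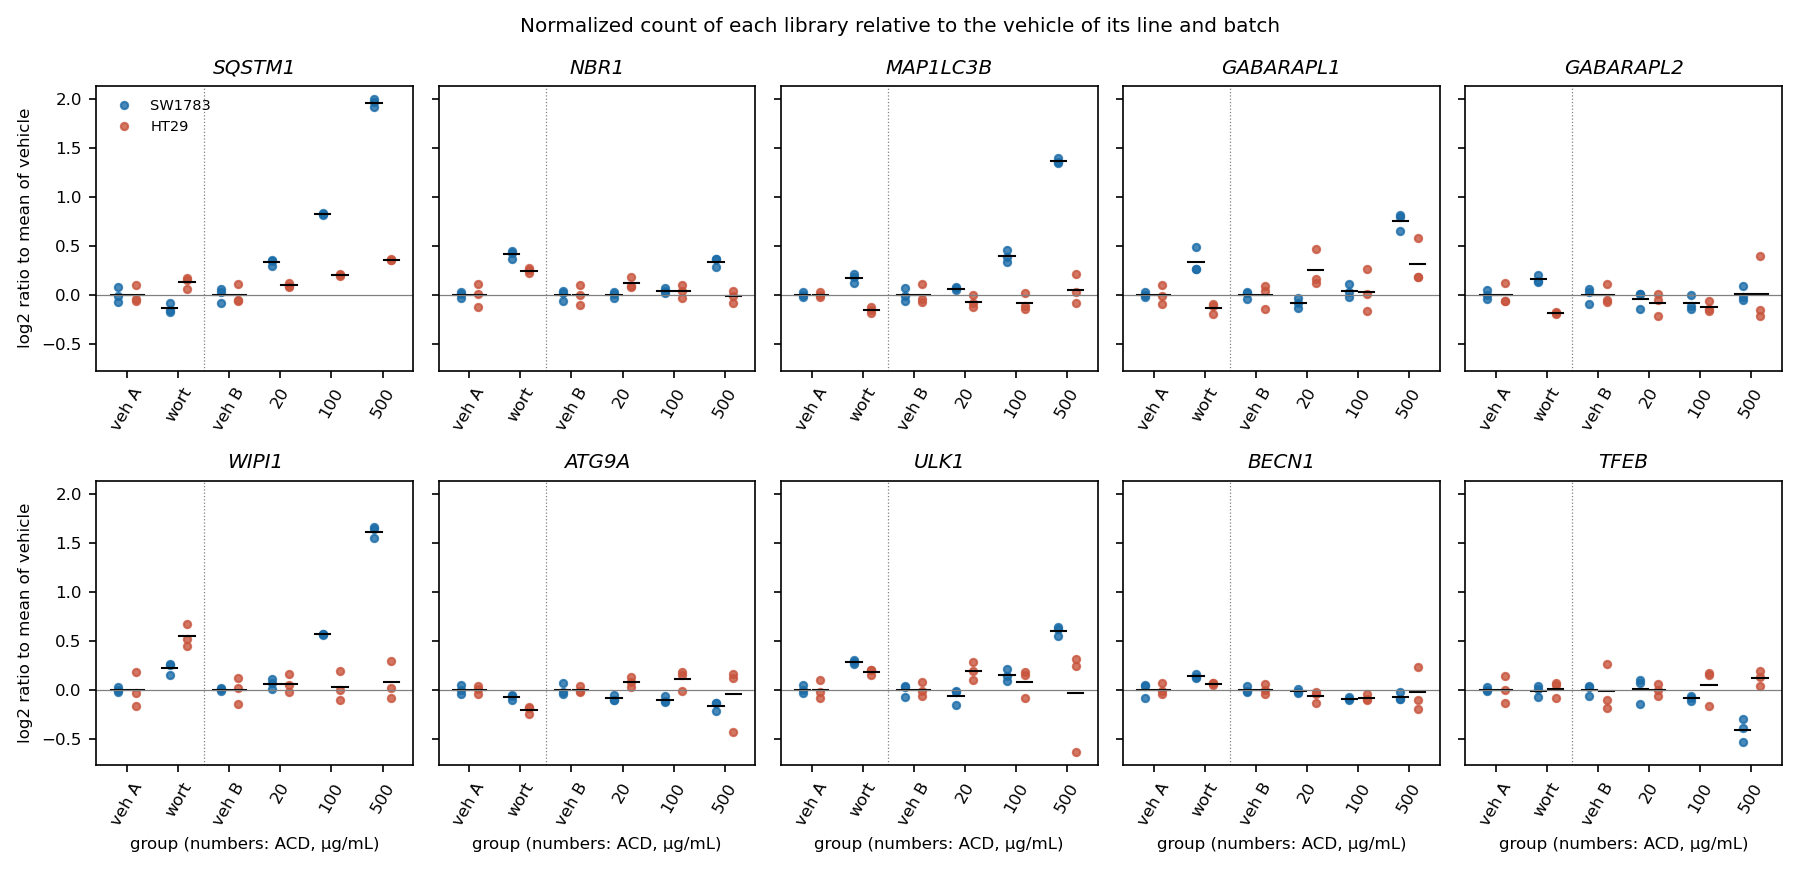
Normalized count of each library, as log2 ratio to the mean of the vehicle of the same line and batch (y axis), for the 10 genes in the 6 groups of each line (x axis, batch A to the left of the dotted line, with ACD doses in µg/mL). Points are libraries, black bars are means of 3, and in SW1783 at 500 µg/mL SQSTM1, WIPI1, MAP1LC3B, GABARAPL1 and ULK1 lie above their vehicles in all 3 libraries.

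SQSTM1 (ENSG00000161011, chr5:179806398-179838078, + strand, GENCODE v44 on GRCh38), the receptor that links ubiquitinated cargo to ATG8 proteins and also binds the NRF2 inhibitor KEAP1, showed the largest response. Its normalized counts in SW1783 were 9745, 10500 and 10730 in vehicle, 13110, 13180 and 12670 at the low dose, 18120, 18420 and 18280 at the medium dose, and 39110, 40450 and 41320 at the high dose. The 4 groups did not overlap and were ordered by dose. SQSTM1 was 3.9-fold higher than in vehicle at the high dose, with a log2 fold change of 1.96 ± 0.03 and an adjusted p below the smallest value that DESeq2 prints. The medium dose gave a 1.77-fold rise (0.82 ± 0.03, adjusted p = 1.63e-152 by DESeq2). At the low dose it rose 1.26-fold (0.33 ± 0.03, adjusted p = 6.94e-23 by DESeq2), under the threshold of a DEG, and it was the only one of the 10 genes to pass the adjusted p at that dose. SQSTM1 also stood at the 98.9th percentile of absolute changes at the high dose, among genes tested whose normalized counts averaged at least 100.

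NBR1 (ENSG00000188554, chr17:43170481-43211689, + strand), a receptor related to SQSTM1 in its domains, responded less. Its normalized counts were 2669, 2630 and 2478 in vehicle and 3145, 3347 and 3351 at the high dose, and all 3 treated libraries were above vehicle. The log2 fold change was 0.34 ± 0.04 (1.27-fold, adjusted p = 6.04e-16 by DESeq2), which did not reach 1.5-fold. In the groups of the medium (2617, 2713 and 2659) and the low dose (2527, 2646 and 2612) the libraries overlapped with vehicle, with log2 fold changes of 0.04 ± 0.04 and 0 ± 0.04.

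Among the ATG8 proteins, MAP1LC3B (ENSG00000140941, chr16:87383953-87404779, + strand), whose lipid-bound protein is the usual marker of autophagosomes, rose most. Its normalized counts were 1831, 1934 and 1758 in vehicle, 1926, 1900 and 1940 at the low dose, 2536, 2406 and 2314 at the medium dose, and 4728, 4845 and 4666 at the high dose. The low dose overlapped with vehicle, while the medium and high doses lay above it and apart from each other. MAP1LC3B was 2.58-fold higher at the high dose (log2 fold change 1.36 ± 0.04, adjusted p = 3.14e-220 by DESeq2) and 1.31-fold higher at the medium dose (0.39 ± 0.04, adjusted p = 6.94e-17). MAP1LC3B2, a near-identical copy, was listed with at most 16.8 normalized counts in a library of the high dose, and how the counting split reads between the copies was not tested.

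GABARAPL1 (ENSG00000139112, chr12:10212458-10223128, + strand), of the GABARAP branch of the family, rose at the high dose alone among the 3 doses. Its counts were 407.8, 423.2 and 426.7 in vehicle, 382.8, 411.1 and 394.5 at the low dose, 450.9, 411.9 and 428.7 at the medium dose, and 739.7, 660.4 and 724.9 at the high dose. Only the high dose lay wholly above vehicle, with a 1.69-fold increase (log2 fold change 0.75 ± 0.08, adjusted p = 3.59e-19 by DESeq2). GABARAPL2 (ENSG00000034713, chr16:75566375-75577881, + strand), of the same branch, had 856.7, 877.9 and 791 counts in vehicle and 828.9, 892.8 and 811.9 at the high dose. These libraries overlapped, and the log2 fold change was 0 ± 0.07 (adjusted p = 0.97 by DESeq2).

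WIPI1 (ENSG00000070540, chr17:68420948-68457513, - strand), which binds the phosphoinositide made on the growing membrane, gave the second largest increase. Its counts were 506.2, 501.1 and 494.3 in vehicle, 501.1, 523.3 and 537.8 at the low dose, 743, 734.4 and 743.5 at the medium dose, and 1557, 1460 and 1581 at the high dose. The medium and high doses lay above vehicle in each library and did not overlap with each other. WIPI1 was 3.06-fold higher at the high dose (log2 fold change 1.61 ± 0.07, adjusted p = 5.11e-133 by DESeq2), and 1.48-fold higher at the medium dose (0.56 ± 0.07, adjusted p = 9.99e-15), just under the threshold of a DEG. ATG9A (ENSG00000198925, chr2:219219380-219229717, - strand), the vesicle-borne scramblase, had 1687, 1702 and 1823 counts in vehicle and 1584, 1493 and 1581 at the high dose. All treated libraries were below vehicle, and the level fell by 0.16 ± 0.05 on the log2 scale (adjusted p = 0.00246 by DESeq2).

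The kinase ULK1 (ENSG00000177169, chr12:131894622-131923150, + strand), which starts autophagosome formation, had 927.4, 1001 and 994.9 counts in vehicle and 1429, 1515 and 1493 at the high dose. The groups were apart, and the 1.52-fold increase (log2 fold change 0.6 ± 0.06, adjusted p = 4.52e-23 by DESeq2) was just over the threshold. Without replicate 1 of the vehicle it was 0.57, under that threshold, with the adjusted p still at 9.44e-16. With the medium dose ULK1 had 1035, 1075 and 1130 counts, all above vehicle, and its log2 fold change of 0.15 ± 0.06 (adjusted p = 0.0481 by DESeq2) passed in 4 of 12 alternatives. It no longer passed when any replicate of the vehicle or replicate 2 or 3 of the medium dose was left out, with adjusted p from 0.0773 to 0.272. BECN1 (ENSG00000126581, chr17:42810134-42833350, - strand), the scaffold of the lipid kinase complex, had 1433, 1385 and 1373 counts in vehicle and 1373, 1304 and 1303 at the high dose. These groups met at 1373, and the log2 fold change was -0.08 ± 0.05 (adjusted p = 0.218 by DESeq2).

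TFEB (ENSG00000112561, chr6:41683978-41736259, - strand), the transcription factor, went the other way. Its counts were 307.4, 309.3 and 289.3 in vehicle, 279.4, 288 and 285.5 at the medium dose, and 245.4, 208.1 and 230.1 at the high dose. The high dose lay below vehicle in each library, and TFEB fell by 0.41 ± 0.11 on the log2 scale (adjusted p = 7.36e-04 by DESeq2). Libraries of the medium dose were also all below vehicle, but the log2 fold change of -0.09 ± 0.11 did not pass (adjusted p = 0.605 by DESeq2). TFEB activity is regulated mainly through its location in the cell, which transcript counts do not show.

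**Figure D2:**
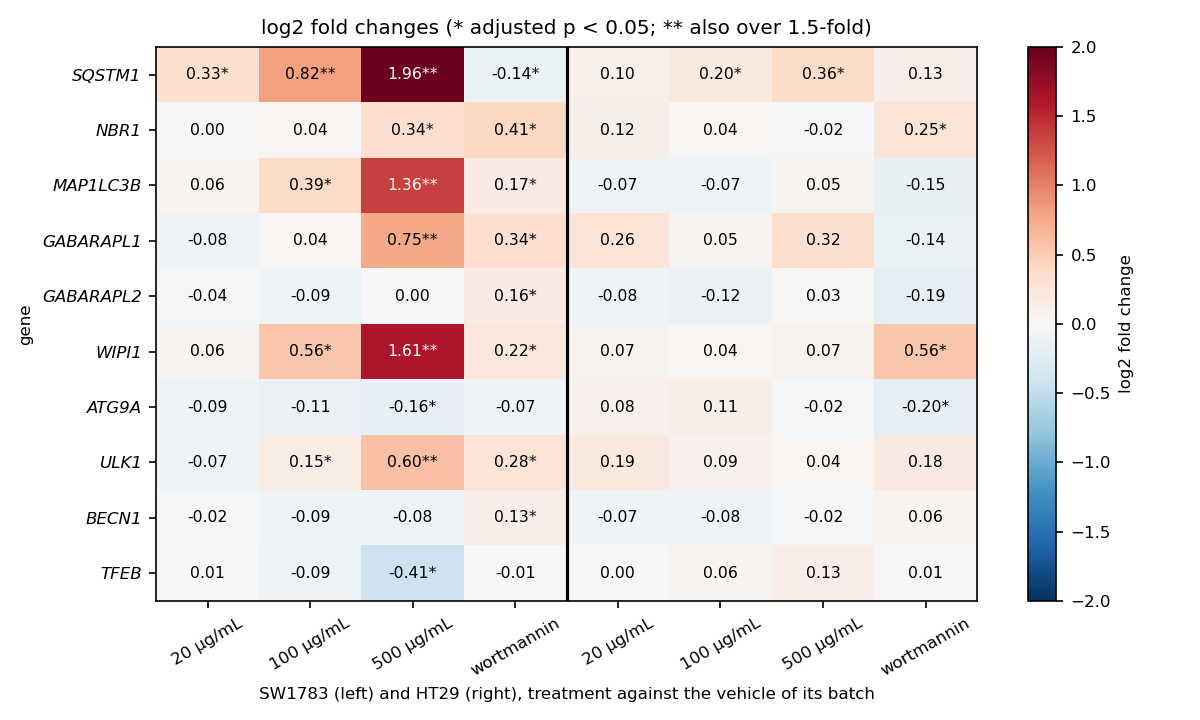
Log2 fold change against the vehicle of the same batch (colour and printed value, n = 3 per group) for the 10 genes (y axis). The x axis gives the 3 doses of ACD and wortmannin, with SW1783 on the left and HT29 on the right. One asterisk marks an adjusted p under 0.05, and a double asterisk marks a change that was also over 1.5-fold. In SW1783 SQSTM1 moved from 0.33 at the low dose to 0.82 and 1.96 at the medium and high doses, whereas all values of HT29 lay within 0.56 of 0.

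SQSTM1 was the only DEG of the medium dose among the 10 genes, against 3.81% of 14082 genes. By the adjusted p-value alone 4 of the 10 genes were higher (SQSTM1, WIPI1, MAP1LC3B and ULK1) and none lower, against 29.5% of all genes in either direction, with edgeR adding ATG9A as lower. At the low dose none of the 10 was a DEG by DESeq2 or edgeR, against 0.118% of 9304 genes that were DEGs by DESeq2. Of the 10, 1 had an unadjusted p under 0.05. The adjusted p alone was passed there by 1 of the 10 and by 3.29% of all genes. To compare doses directly, a comparison of the high with the medium dose was added after the data were seen, in which 10.2% of 16467 genes were DEGs and 40.9% passed the adjusted p. SQSTM1 (1.14 ± 0.03), WIPI1 (1.05 ± 0.06), MAP1LC3B (0.97 ± 0.04) and GABARAPL1 (0.72 ± 0.08) were DEGs on the log2 scale. ULK1 (0.45 ± 0.06) and NBR1 (0.3 ± 0.04) were higher and TFEB fell by 0.32 ± 0.11 with adjusted p under 0.05 by DESeq2, and BECN1, ATG9A and GABARAPL2 did not pass. TFEB no longer passed without replicate 2 of the high dose (adjusted p = 0.112 by DESeq2) or replicate 2 of the medium dose (adjusted p = 0.0518).

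Mitochondrially encoded ribosomal RNA moved with the ACD groups. Its share of the counts in SW1783 was 0.931% ± 0.0253 in vehicle, 3.15% ± 0.165 at the low dose, 7.83% ± 0.199 at the medium dose and 5.93% ± 0.153 at the high one (SD, n = 3). The HT29 shares in the same order were 1.18% ± 0.04, 1.08% ± 0.0885, 2.1% ± 0.122 and 12% ± 0.611. With size factors computed without mitochondrially encoded genes, the log2 fold change of SQSTM1 at the high dose stayed at 1.96 in SW1783 and 0.36 in HT29. These factors are medians over many genes, so leaving out a few could hardly move them. The part of this RNA in the values of the 10 genes was not tested. COL1A2, one of the SW1783 markers, fell by 1.89 ± 0.05 on the log2 scale at the high dose, and its part in the values of the 10 genes was not tested.

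The same genes were then examined in HT29. At the high dose SQSTM1 rose 1.28-fold, and the other 9 genes did not pass the test. None of the 10 genes was a DEG at any of the 3 doses by DESeq2 or edgeR, with 1, 1 and 0 of them at an unadjusted p under 0.05 at the high, medium and low doses. DEGs made up 2.92% of 16450 genes at the high dose, 0.827% at the medium dose and 0.321% at the low dose. By the adjusted p alone, 4% of all genes were higher and 3.62% lower at the high dose, 2.09% passed at the medium dose and 0.649% at the low dose.

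SQSTM1 in HT29 had 9693, 8656 and 8575 normalized counts in vehicle, 9536, 9785 and 9469 at the low dose, 10410, 10250 and 10350 at the medium dose, and 11490, 11590 and 11450 at the high dose. Replicate 1 of the vehicle was higher than the other 2, and the low dose overlapped with it, whereas the medium and high doses lay above all vehicles. The log2 fold change of SQSTM1 at the high dose was 0.36 ± 0.05 (adjusted p = 3.27e-09 by DESeq2) and, without replicate 2 of that dose, 0.35 ± 0.06 (adjusted p = 2.09e-08). For the medium dose it was 0.2 ± 0.05 (adjusted p = 0.0112 by DESeq2). That call was lost with edgeR (adjusted p = 0.26) and without replicate 2 or 3 of the vehicle or any replicate of the medium dose, with adjusted p from 0.0835 to 0.212. At the low dose it was 0.1 ± 0.05 (adjusted p = 0.759), and it passed without replicate 1 of the vehicle (0.16, adjusted p = 0.00359 by DESeq2).

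For several of the other genes the libraries of the high dose in HT29 were split by replicate 2. ULK1 had 662.5, 341.9 and 628.7 counts there against 528.2, 562.7 and 509.6 in vehicle, so that replicate 2 was below and the others above all vehicles. ATG9A was split in the same way, with 2805, 1857 and 2725 counts against 2566, 2469 and 2478. In the opposite way, replicate 2 was the highest for BECN1 (1293, 1745 and 1376 against 1540, 1474 and 1435) and GABARAPL2 (1324, 1951 and 1272 against 1601, 1408 and 1430). Without this replicate the log2 fold changes were 0.27 ± 0.1 for ULK1, 0.14 ± 0.07 for ATG9A, -0.15 ± 0.07 for BECN1 and -0.19 ± 0.08 for GABARAPL2, and none of them passed (adjusted p from 0.0532 to 0.136 by DESeq2). With it they were 0.04 ± 0.2, -0.02 ± 0.14, -0.02 ± 0.1 and 0.03 ± 0.15.

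The ATG8 gene GABARAPL1 had 163.7, 215.4 and 163.5 counts at the high dose in HT29, all above the 153.6, 130.2 and 147.9 of vehicle, but its log2 fold change of 0.32 ± 0.18 did not pass (adjusted p = 0.325 by DESeq2). MAP1LC3B (1072, 1321 and 1163 against 1229, 1106 and 1083) and WIPI1 (136.4, 165.8 and 126.9 against 147, 122.2 and 136.2) overlapped with vehicle. Their log2 fold changes were 0.05 ± 0.09 and 0.07 ± 0.16. NBR1 (-0.02 ± 0.07) and TFEB (0.13 ± 0.14) did not pass either, and the libraries of both overlapped with vehicle.

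To test whether the lines differed in their response, the difference of the log2 fold changes (SW1783 minus HT29) was fitted as an interaction. At the high dose 4 of the 10 genes differed by more than 1.5-fold, against 14.6% of 18379 genes, and 7 passed the adjusted p alone, against 27.7%. SQSTM1 (1.56 ± 0.06, adjusted p = 2.7e-151), WIPI1 (1.51 ± 0.13, adjusted p = 2.37e-28) and MAP1LC3B (1.27 ± 0.09, adjusted p = 6.45e-43) were higher in SW1783 by DESeq2. TFEB was lower, with a difference of -0.59 ± 0.17 (adjusted p = 0.00231 by DESeq2). The TFEB difference lay at the threshold and was over 1.5-fold in 9 of 18 alternatives, with values from -0.73 to -0.51. It fell short, among other settings, with edgeR (-0.56) and without replicate 2 or 3 of the HT29 vehicle (-0.53 and -0.51), replicate 1 or 3 of the HT29 high dose (-0.55 and -0.58), replicate 1 or 2 of the SW1783 vehicle (-0.57 in both) or replicate 2 of the SW1783 high dose (-0.52).

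**Figure D3:**
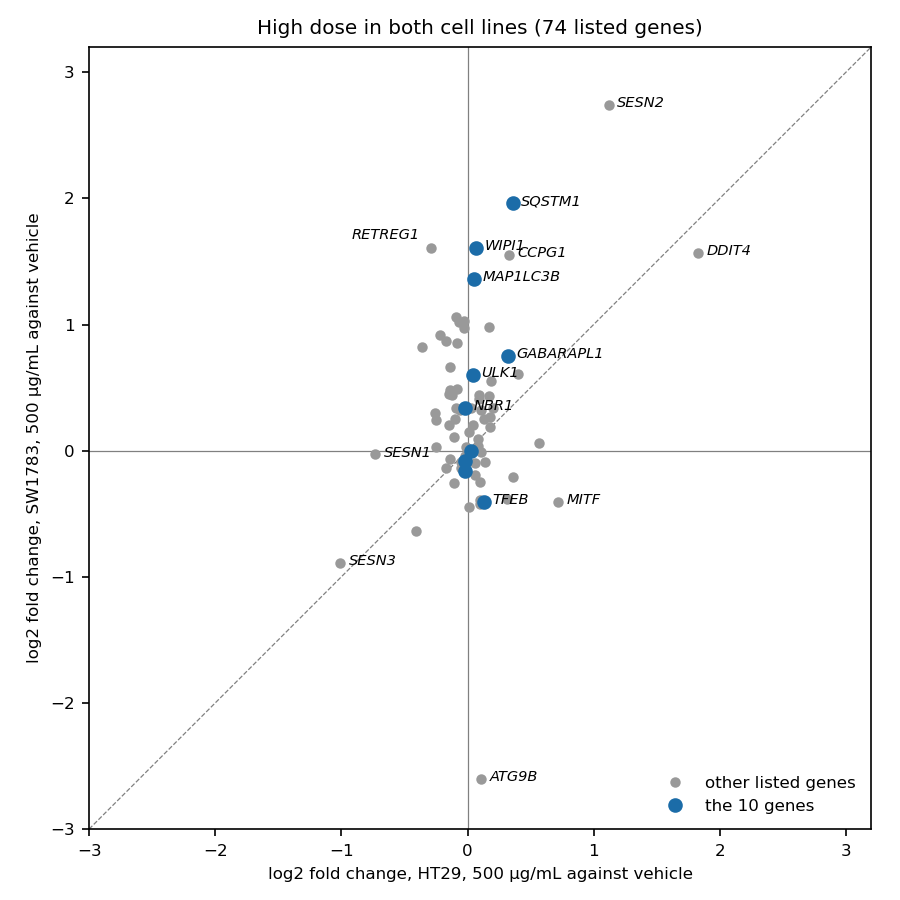
Log2 fold change at 500 µg/mL against vehicle in HT29 (x axis) and SW1783 (y axis) for the 10 genes (blue) and the other listed autophagy and mTORC1 genes (grey), 74 genes in all. Points above the dashed diagonal, 50 of the 74 and 6 of the 10 genes, had the higher value in SW1783. Of the 18379 genes tested for the line difference at this dose, 8593 had the higher value in SW1783, and the counts were not tested against this share. ATG9B, the lowest point, had a mean of 3.417 normalized counts in SW1783 and did not pass the test in either line.

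NBR1 (0.31 ± 0.08, adjusted p = 3.12e-04 by DESeq2), GABARAPL1 (0.4 ± 0.16, adjusted p = 0.0406) and ULK1 (0.52 ± 0.21, adjusted p = 0.0442) also differed at the high dose by the adjusted p. The GABARAPL1 difference was lost in 11 of 18 alternatives, among them the omission of any replicate of the SW1783 vehicle, replicate 1 or 3 of the SW1783 high dose, of the HT29 vehicle or of the HT29 high dose, with adjusted p up to 0.152. The ULK1 difference was lost in 12 of 18, among them edgeR and the omission of any replicate of either vehicle or of the SW1783 high dose, with adjusted p up to 0.159. Without replicate 2 of the HT29 high dose the difference was 0.29 for ULK1 (adjusted p = 0.0237 by DESeq2), 0.51 for GABARAPL1 (adjusted p = 0.00632) and -0.35 for ATG9A (adjusted p = 2.59e-05), and those of SQSTM1, WIPI1, MAP1LC3B and TFEB were 1.56, 1.59, 1.34 and -0.63. ATG9A did not pass with all libraries (-0.19 ± 0.15, adjusted p = 0.396). BECN1 (-0.09 ± 0.1) and GABARAPL2 (-0.06 ± 0.16) did not pass.

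At the medium dose the difference between the lines was over 1.5-fold for SQSTM1 alone among the 10 genes (0.6 ± 0.06, adjusted p = 2.37e-21 by DESeq2), against 3.34% of 15047 genes. It was 0.56 without replicate 1 of the SW1783 vehicle and 0.54 without replicate 1 of the HT29 vehicle, under the threshold. WIPI1 (0.49 ± 0.13, adjusted p = 0.00342) and MAP1LC3B (0.44 ± 0.09, adjusted p = 4.84e-05) passed the adjusted p alone by DESeq2, as did 10.4% of all genes. At the low dose none of the 10 differed by over 1.5-fold by DESeq2 or edgeR, against 0.267% of 12382 genes that did so by DESeq2. Of the 10, 2 had an unadjusted p under 0.05. SQSTM1 passed the adjusted p, with 0.21 ± 0.06 (adjusted p = 0.0491 by DESeq2), as did 0.929% of all genes, and this call was lost in 14 of 18 alternatives, among them edgeR (adjusted p = 0.372) and the omission of any replicate except replicate 3 of the SW1783 vehicle or replicate 2 or 3 of the HT29 vehicle.

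Wortmannin served as positive control, and most of the 10 genes moved with it in SW1783, but by little. None was a DEG by DESeq2 or edgeR, against 2.72% of 13944 genes that were DEGs by DESeq2. Of the 10, 8 had an unadjusted p under 0.05. By the adjusted p alone 7 were higher and SQSTM1 was lower, against 33.9% of all genes in either direction. Of the 11589 genes whose normalized counts averaged at least 100, 1805 were higher and 2758 lower. The median log2 fold change was 0.16 over the 10 genes and -0.01 over all genes tested. NBR1 had the largest change, from 3095, 3050 and 2967 counts in vehicle to 4076, 3907 and 4148, with all treated libraries above vehicle and a log2 fold change of 0.41 ± 0.04 (1.33-fold, adjusted p = 4.78e-27 by DESeq2). GABARAPL1 rose by 0.34 ± 0.09 (adjusted p = 5.15e-04) and ULK1 by 0.28 ± 0.06 (adjusted p = 6.66e-06), and MAP1LC3B by 0.17 ± 0.04 (adjusted p = 5.7e-04). For each of these 3 genes the treated libraries lay above vehicle, as they also did for WIPI1, GABARAPL2 and BECN1.

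SQSTM1 in SW1783 had 11010, 11500 and 12240 counts in vehicle of batch A and 10250, 10380 and 10920 with wortmannin. All treated libraries were below vehicle, and SQSTM1 fell by 0.14 ± 0.05 on the log2 scale (adjusted p = 0.0256 by DESeq2). This call was lost without replicate 2 of the vehicle (adjusted p = 0.0954), replicate 1 of wortmannin (adjusted p = 0.155) or replicate 2 of wortmannin (adjusted p = 0.138). WIPI1 (0.22 ± 0.08), GABARAPL2 (0.16 ± 0.06) and BECN1 (0.13 ± 0.05) passed at adjusted p of 0.0192, 0.0296 and 0.0267 by DESeq2, and these calls were lost when single libraries were left out. The adjusted p went up to 0.121 for WIPI1 (without replicate 2 of the vehicle or replicate 1 or 3 of wortmannin), to 0.177 for GABARAPL2 and 0.227 for BECN1 (both without replicate 2 or 3 of the vehicle or any replicate of wortmannin). ATG9A (-0.07 ± 0.05) and TFEB (-0.01 ± 0.11) did not pass.

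In HT29 with wortmannin none of the 10 genes was a DEG by DESeq2 or edgeR, against 2.65% of 13678 genes that were DEGs by DESeq2. Of the 10, 5 had an unadjusted p under 0.05. By the adjusted p alone 2 were higher and 1 lower, against 18.7% of all genes. WIPI1 had 131.3, 103.4 and 113.5 counts in vehicle and 166.5, 185.1 and 157.8 with wortmannin, and NBR1 had 1860, 2041 and 2183 and then 2445, 2366 and 2409, so that both lay above vehicle in each treated library. Their log2 fold changes were 0.56 ± 0.18 (adjusted p = 0.011 by DESeq2) and 0.25 ± 0.07 (adjusted p = 0.00672). ATG9A had 2332, 2278 and 2201 counts in vehicle and 2010, 1912 and 1993 with wortmannin, all below vehicle, and fell by 0.2 ± 0.06 on the log2 scale (adjusted p = 0.00831 by DESeq2). WIPI1 passed 1.5-fold without replicate 1 of the vehicle (0.65) or replicate 3 of wortmannin (0.61), and lost the adjusted p without replicate 2 or 3 of the vehicle or replicate 1 or 2 of wortmannin (up to 0.144). NBR1 lost it without any one replicate of wortmannin (up to 0.0872), and ATG9A without replicate 2 of the vehicle or replicate 2 or 3 of wortmannin (up to 0.116). SQSTM1 (0.13 ± 0.06, adjusted p = 0.167 by DESeq2) passed only without replicate 1 of the vehicle (0.18, adjusted p = 8.03e-05).

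The response to wortmannin differed between the lines by the adjusted p for 4 of the 10 genes, against 14.9% of 13625 genes. None of the 10 differed by over 1.5-fold with DESeq2 or edgeR, against 3.36% of all genes that did so by DESeq2. Of the 10, 5 had an unadjusted p under 0.05. The difference (SW1783 minus HT29) was 0.3 ± 0.07 for MAP1LC3B (adjusted p = 1.58e-04 by DESeq2), 0.32 ± 0.08 for GABARAPL2 (adjusted p = 0.00149), 0.46 ± 0.16 for GABARAPL1 (adjusted p = 0.0279) and -0.29 ± 0.08 for SQSTM1 (adjusted p = 0.00233). GABARAPL1 lost it in 8 of 17 alternatives, among them the omission of replicate 1 or 2 of the SW1783 vehicle, replicate 3 of wortmannin in SW1783, replicate 2 or 3 of the HT29 vehicle, or replicate 1 or 2 of wortmannin in HT29 (adjusted p up to 0.106). NBR1 (0.2, adjusted p = 0.00127) and WIPI1 (-0.46, adjusted p = 0.0103) passed without replicate 1 of the HT29 vehicle, and not with all libraries (adjusted p = 0.212 and 0.0606).

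To place the 10 genes in their pathway, 67 other genes of autophagy and mTORC1 signalling were listed by role, also with earlier results of these data known. At the high dose in SW1783, 66 of the 67 were tested. Of these, 15 were upregulated and 2 downregulated as DEGs, 36 were higher and 12 lower by the adjusted p alone, and 18 did not pass, against 18.2% of all genes that were DEGs and 23.9% and 22.6% that were higher and lower. Their median log2 fold change was 0.25, against -0.01 over all genes tested. SESN2, a sensor of leucine that restrains mTORC1, rose most among those whose normalized counts averaged at least 100 (2.74 ± 0.07), from 374 ± 9.22 to 2495 ± 145 normalized counts (SD, n = 3). It was followed by DDIT4 (1.57 ± 0.05), another inhibitor of mTORC1, CCPG1 (1.55 ± 0.05), a receptor for degradation of the endoplasmic reticulum, RRAGC (1.06 ± 0.05), a GTPase that recruits mTORC1 to lysosomes, and NRBF2 (1.03 ± 0.08), a subunit of the lipid kinase complex. SESN3 fell by 0.89 ± 0.15 and BNIP3, a mitophagy receptor, by 0.64 ± 0.04.

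**Figure D4:**
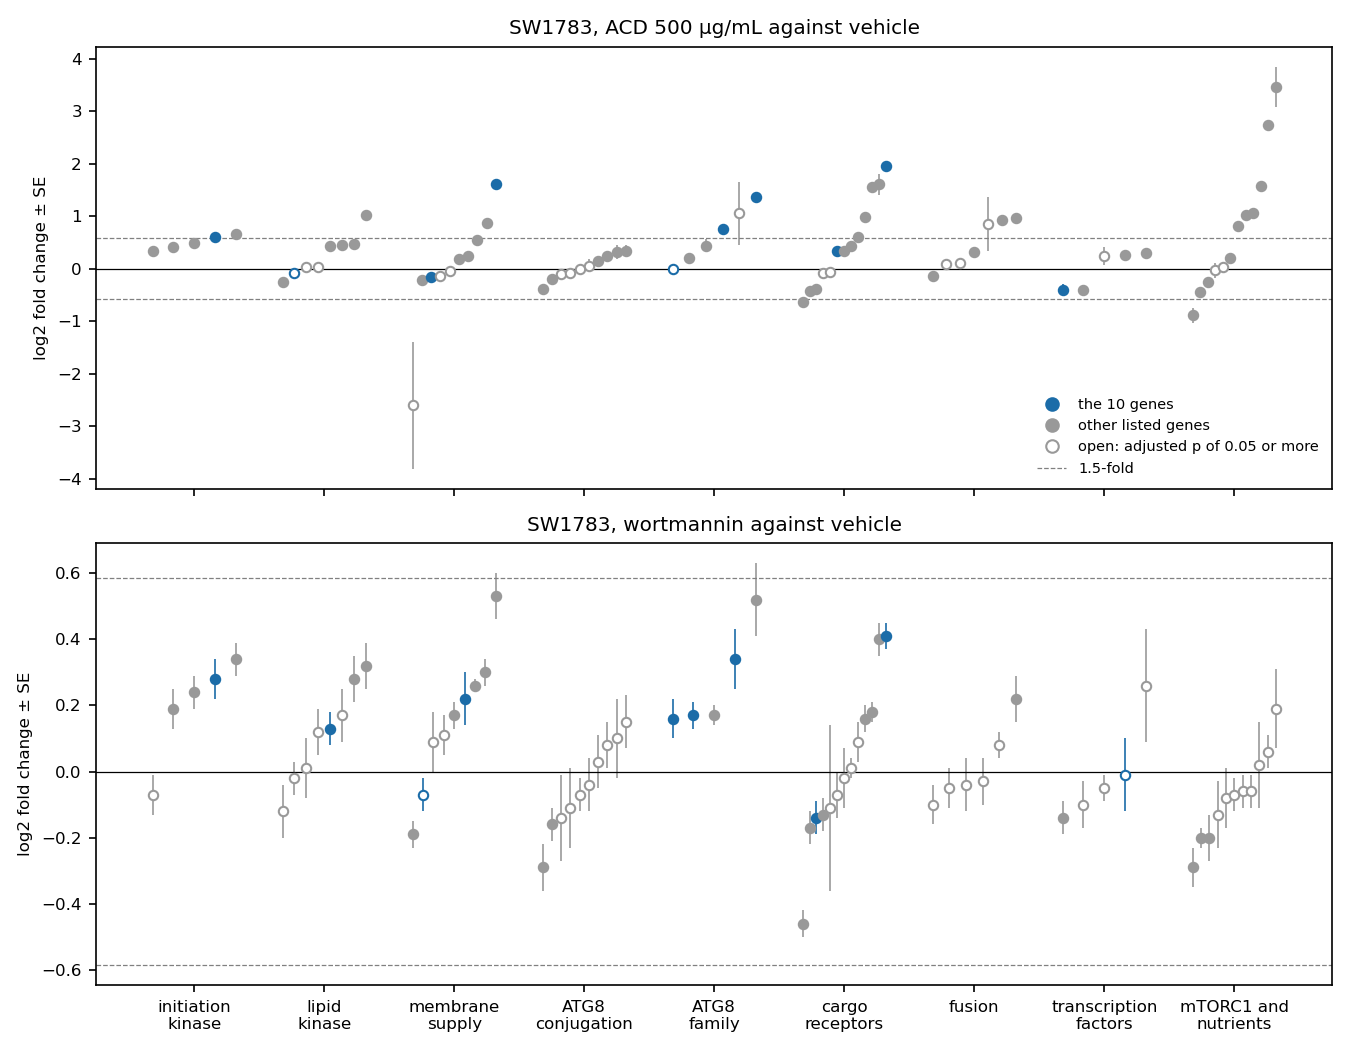
Log2 fold change (y axis, ± SE) of the 10 genes (blue) and the other listed genes (grey) by role (x axis) in SW1783, at 500 µg/mL of ACD (upper panel) and with wortmannin (lower panel, with a narrower scale). Open points did not pass an adjusted p of 0.05 by DESeq2, dashed lines mark 1.5-fold, and no gene of either list passed these lines with wortmannin.

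By role, all 4 other listed genes of the initiation kinase complex were higher by the adjusted p at the high dose in SW1783, with a median log2 fold change of 0.45. Of 11 other receptors 6 were higher and 3 lower, of 7 other genes of the lipid kinase complex 4 were higher and 1 lower, and of 7 fusion genes 3 were higher and 1 lower. By the same rule 23.9% of all genes were higher and 22.6% lower, and no count by role was tested against these shares. The 10 genes of the ATG8 conjugation machinery had no DEG by DESeq2, with 4 higher, 2 lower and a median of 0.02. Of 12 mTORC1 and nutrient genes 6 were upregulated and 1 downregulated as DEGs, against 18.2% of all genes that were DEGs. With the medium dose 3 of 63 tested were DEGs, against 3.81% of all genes, among them SESN2 (1.88 ± 0.07) and DDIT4 (1.2 ± 0.05), and at the low dose none of 56 was a DEG by DESeq2, while 3 passed the adjusted p, against 3.29% of all genes.

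In HT29 at the high dose 4 of 64 other listed genes tested were DEGs, against 2.92% of all genes, all of them in the mTORC1 and nutrient group. DDIT4 rose by 1.83 ± 0.08 and SESN2 by 1.12 ± 0.14, and SESN1 fell by 0.73 ± 0.12 on the log2 scale. The same counts of 2 higher and 2 lower were obtained without replicate 2 of that dose. They were 2 and 1 without replicate 3 of the vehicle or replicate 1 of that dose, and 3 and 2 without replicate 3 of that dose. With wortmannin no other listed gene was a DEG by DESeq2 in either line, and 25 of 62 tested passed the adjusted p in SW1783, 15 higher and 10 lower, and 9 of 63 in HT29, 2 higher and 7 lower. These counts were near the shares over all genes, 33.9% in SW1783 and 18.7% in HT29.

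As a description, the genes whose pattern was most like that of SQSTM1 were sought among those whose normalized counts averaged at least 100. Over the 18 libraries of SW1783 they were VAC14 (Pearson r = 0.995), HSPA5 (0.994), ICAM1 (0.993), CLCN5 (0.992) and SPIRE1 (0.992), out of 11378 genes. Over the 18 libraries of HT29 they were SDC4 (0.948), EPHX1 (0.947), BCAR3 (0.946), ALDH3A1 (0.945) and MSTO1 (0.917), out of 10917 genes. No gene was among the 5 of both lines. The libraries of a line share their groups, so these values carry no test.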

How the data were processed

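RNA was sequenced by the authors as directional mRNA libraries, 100-base paired-end. Per the labels, reads were checked with FastQC 0.11.9, trimmed with Trim Galore 0.6.5, aligned with STAR 2.7.3a and counted per gene with RSEM 1.3.3. The deposited values were expected counts, of which 8.84% were not whole, and they were rounded. Groups followed the labels. DESeq2 1.42.0 (R 4.3.3) gave the main test, a Wald test fitted per line to all libraries of a batch and, for line differences, to both lines with an interaction. A gene was tested where DESeq2 gave it an adjusted p-value. A DEG had an adjusted p under 0.05 and a log2 fold change over 0.585 in size, which is 1.5-fold.

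Alternatives were the quasi-likelihood test of edgeR 4.0.16 with TMM, TMM-derived size factors, size factors without mitochondrially encoded genes, a filter of 10 or more counts in at least 3 libraries, a fit of only the groups compared, replicate number as a block, and leaving out each replicate. The comparison of the high with the medium dose was added after seeing the data. The fits were also run on simulated counts. These held no outlying library and no line difference with ACD, and no result above rests on them. Total counts of 15941255 to 33866644 per library set the limit that a count of 0 allows (3 counts) at 0.0886 to 0.188 CPM, for counting error only.

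Members and lists were chosen with earlier results of these data known. Named were all 10 genes and, of the 67 other listed genes, DEGs whose normalized counts averaged at least 100, the largest first, at most 5 per direction at the high dose and with wortmannin and 2 at other doses, and the 5 genes most correlated with SQSTM1 per line. Gene positions came from GENCODE v44 and promoters from RefSeq. Figures were drawn with matplotlib 3.10.9 in Python 3.11.15.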

Additional observations from a re-analysis of the deposited data

Results flagged for a closer look

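These results were picked out because the responses of the lines differed by more than 1.5-fold in a test of the difference itself (SW1783 minus HT29, log2 scale, ± SE, adjusted p by DESeq2). At the high dose the difference was 1.56 ± 0.06 for SQSTM1 (adjusted p = 2.7e-151), 1.51 ± 0.13 for WIPI1 (2.37e-28), 1.27 ± 0.09 for MAP1LC3B (6.45e-43) and -0.59 ± 0.17 for TFEB (0.00231), the last at the threshold. At the medium dose it was 0.6 ± 0.06 for SQSTM1 (2.37e-21).

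Among the other listed genes, the high-dose difference was 1.57 ± 0.15 for SESN2 (1.13e-24), 1.18 ± 0.08 for CCPG1 (1.47e-43), 1.14 ± 0.1 for FLCN (1.23e-28), a regulator of Rag GTPases, 1.12 ± 0.1 for RRAGC (3.04e-28) and 1.09 ± 0.21 for EPG5 (4.23e-06), a tether in fusion with lysosomes. It was -0.72 ± 0.13 for ATG4A (2.48e-07), a protease that processes ATG8 proteins, and -0.61 ± 0.14 for VMP1 (1.85e-04), a scramblase of the endoplasmic reticulum. ATG4A had 378.6, 359.5 and 355.4 normalized counts in SW1783 at the high dose against 479.6, 455.6 and 486 in vehicle. In HT29 it had 209.6, 265 and 239.7 against 182.7, 197.6 and 192.6. The values of the lines thus moved in opposite directions, but the rise in HT29 did not pass the adjusted p by DESeq2. Replicate 2 of the HT29 high dose had 6197 normalized counts of VMP1, against 4112 and 4140 in the others, and the VMP1 difference was under 1.5-fold without it and with edgeR (-0.71 to -0.4 over the alternatives). At the medium dose the difference was 1.75 ± 0.15 for SESN2 (2.88e-28) and 1.19 ± 0.1 for DDIT4 (1.01e-28).

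With wortmannin the difference was -0.64 ± 0.15 for BNIP3 (5.22e-04), which was under 1.5-fold without replicate 1 of the HT29 vehicle (-0.74 to -0.5 over the alternatives).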

How the results depend on the processing

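No call of the 10 genes changed direction under any alternative, and 68 values without a call changed sign. With single replicates left out, 943 of 1020 values kept their side of the adjusted p threshold, 72 lost it and 5 gained it. Under the other settings, 725 of 750 kept it, 23 lost it and 2 gained it. The number of the 10 genes that were DEGs also changed when single replicates were left out. At the high dose it went from 5 to between 4 and 5 in SW1783, and from 4 to between 3 and 4 for the line difference. It went from 0 to between 0 and 1 for wortmannin in HT29, and from 1 to between 0 and 1 for the line difference at the medium dose.

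With the replicate block, 118 of 130 values kept their side and 12 lost it, and the 10 genes held 3 in place of 4 DEGs in the line difference at the high dose, where TFEB was at -0.58. The adjusted p values of the lost calls (DESeq2) were 0.098 for ULK1 at the medium dose and 0.156, 0.157 and 0.194 for BECN1, WIPI1 and GABARAPL2 with wortmannin in SW1783. In HT29 they were 0.078 for SQSTM1 at the medium dose and 0.0933 and 0.134 for ATG9A and WIPI1 with wortmannin. In the line differences they were 0.0588 for GABARAPL1 at the high dose, 0.0714 for SQSTM1 at the low dose, and 0.0812, 0.323 and 0.12 for MAP1LC3B, GABARAPL1 and GABARAPL2 with wortmannin. Same-numbered libraries deviated from their group means with correlations of -0.459 to 0.326, over 0.1 in 4 of 24 libraries, and 5 of 24 were closest to their own number, so that the numbers were not used as pairs. Over all genes, the block lowered DEGs with wortmannin in HT29 from 362 to 201 and in the line difference from 458 to 272. With edgeR, DEGs went from 537 to 809 at the medium dose, from 11 to 30 at the low dose and from 379 to 687 with wortmannin in SW1783, from 51 to 18 at the low dose in HT29 and from 33 to 20 in the line difference at the low dose. The share of higher DEGs went with edgeR from 81.8% to 60% and from 45.1% to 55.6% at the low dose in SW1783 and HT29, and from 26.2% to 37% in the line difference with wortmannin.

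With only the groups compared, DEGs went from 480 to 299 at the high dose in HT29 and from 11 to 6 at the low dose in SW1783. Without replicate 3 of the medium dose in HT29 they went from 136 to 88. At the low dose they were 6 to 7 without replicate 1 or 2 of that dose or replicate 3 of the vehicle in SW1783, and 26 to 33 without replicate 2 of the vehicle or replicate 3 of that dose in HT29. The cause of these shifts was not tested.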
